A study of Homo sapiens with 24 samples.

Results

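The 9 genes described here encode transcription factors that direct myeloid differentiation: SPI1 (the protein PU.1), CEBPA, CEBPB, CEBPD and CEBPE of the C/EBP family, GFI1, IRF8, KLF4 and EGR2. They were chosen by symbol and not by a rule on measured values, though with earlier results of these data known. The deposited transcripts could be matched to 52994 genes. Transcript values were summed to genes in the tables of both harvests. Of the 9 genes, 7 passed the filter on low values (at least 10 scaled reads in at least 3 libraries) at 96 h and the same number at 144 h, and KLF4 and EGR2 did not pass at either time. GFI1 passed through ELF-153 libraries alone, and IRF8 passed through the 3 DAC-treated ELF-153 libraries together with 2 untreated UCSD-AML1 libraries at 96 h and 1 at 144 h, so that the passing of these genes was tied to their differences.

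The study exposed 2 human acute myeloid leukaemia (AML) lines, UCSD-AML1 and ELF-153, to decitabine (DAC), a nucleoside analogue. Once incorporated, it binds the enzymes that copy DNA methylation, and the marks are diluted over rounds of replication. The treated groups received 100 nM DAC on 4 consecutive days with daily renewal of the medium, and the untreated groups did not. Strand-specific libraries were made from total RNA depleted of ribosomal RNA. The groups were DAC-treated and untreated UCSD-AML1 cells harvested at 96 h, DAC-treated and untreated ELF-153 cells harvested at 96 h, and the same 4 groups harvested at 144 h. All 8 groups shared RPMI medium with 20% serum, antibiotics and 5 ng/ml GM-CSF, a cytokine that itself drives myeloid growth. Each group held 3 libraries that the submitters call technical triplicates of 1 line, so that the p-values below reflect technical spread and say nothing of variation from one experiment to the next.

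PU.1 is an ETS-family factor needed for the formation of monocytes and granulocytes, and C/EBPα is needed for the step from the common myeloid to the granulocyte and monocyte progenitor. C/EBPε acts later, in granulocyte maturation, while C/EBPβ and C/EBPδ respond to cytokines and inflammation. IRF8 and KLF4 favour the monocytic fate and EGR2 acts beside EGR1 in macrophage differentiation, whereas GFI1 is a repressor that favours granulocytes over monocytes. CEBPA and SPI1 are dosage-sensitive in leukaemia, and CEBPA promoter methylation is a known feature of some AML.

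The promoters of CEBPA and CEBPB are shown because DAC acts on the methylation of CpG dinucleotides and because CEBPA, unlike CEBPB, passed the test with DAC in every comparison below; each is read from a single transcript. Sequences are from RefSeq (GRCh38.p14), read in the direction of transcription, with CpG dinucleotides in capitals. For CEBPA the bases nearest the RefSeq start were left out, since the GENCODE transcript extends over them, which left 220 bases at chr19:33302565-33302784 on the minus strand with 37 CpG. For CEBPB the 250 bases upstream of the first RefSeq start lie at chr20:50190333-50190582 on the plus strand and hold 25 CpG.
CEBPA: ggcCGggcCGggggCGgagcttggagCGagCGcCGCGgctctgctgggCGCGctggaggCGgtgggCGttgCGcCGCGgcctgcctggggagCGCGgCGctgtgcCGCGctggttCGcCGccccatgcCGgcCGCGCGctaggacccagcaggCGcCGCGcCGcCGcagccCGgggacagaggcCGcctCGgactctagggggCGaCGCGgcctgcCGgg
CEBPB: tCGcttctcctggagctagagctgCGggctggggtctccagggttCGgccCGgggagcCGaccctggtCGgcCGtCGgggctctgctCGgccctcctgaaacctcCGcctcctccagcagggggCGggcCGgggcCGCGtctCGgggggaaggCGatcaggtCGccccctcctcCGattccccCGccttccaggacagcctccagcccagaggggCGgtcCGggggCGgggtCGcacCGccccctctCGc
Over the full 250 bases upstream of the start, CEBPA held 41 CpG, which placed it at the 98.6th percentile of 35116 RefSeq promoters. The median promoter held 11 CpG, with quartiles of 3 and 23. The first CEBPB window was at the 80.4th percentile, and a second CEBPB window, upstream of another RefSeq start and not printed, held 38 CpG (percentile 97.3) and 2 KLF boxes. CEBPE held 2 CpG in the 250 bases upstream of its RefSeq start, at the 22.9th percentile, and the GENCODE transcript overlaps this window. Of 5 motifs searched on both strands, none was found in the CEBPA window or in the first CEBPB window. The CEBPE window held 1 PU.1 core and 2 KLF boxes. The core bound by PU.1, GAGGAA, occurs in 23.6% of all promoters of this length. The C/EBP palindrome TTGCNNAA occurs in 9.05% of them and the EGR site GCGNGGGCG in 8.41%. The KLF box CACCC occurs in 54.7% of promoters. The GATA site AGATAA is found in 9.17% of promoters. Methylation was not measured in these files.

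The libraries held between 13148881 and 28528757 assigned reads. Of 8 markers of AML cells, 6 or 7 had at least 10 scaled reads in every library of each group. Their sum in UCSD-AML1 was 10763 to 13479 scaled reads with DAC and 16401 to 17744 untreated at 96 h, and 6655 to 8448 with DAC and 12423 to 13013 untreated at 144 h. In ELF-153 the sums overlapped, at 10358 to 15102 with DAC and 9603 to 13590 untreated at 96 h. At 144 h they were 8488 to 12217 with DAC and 8972 to 13618 untreated. Among markers of other cells, MS4A1 (B cells), CD8A (T cells), EPCAM (epithelium) and the neutrophil genes ELANE and FCGR3B were at 0 in all 24 libraries, and the monocyte genes CD14 and FCGR3A reached at most 11.3 and 0.872 scaled reads. Other markers of the same cell types were present: the monocyte genes LYZ and S100A9 at 53.7 to 1720 and 296 to 9790, the epithelial keratin genes KRT8 and KRT18 at 18.2 to 181 and 39.1 to 166, and the T-cell genes CD3D and CD3G at up to 204 and 119 scaled reads. CD4, the B-cell genes CD79A and PAX5 and the fibroblast gene PDGFRB were present, at 549 to 1281, 49.9 to 325, 33.6 to 589 and 128 to 431 scaled reads. The share of reads on mitochondrial ribosomal RNA differed between the groups. In UCSD-AML1 it was 62.85% ± 1.05 with DAC and 50.07% ± 1.06 untreated at 96 h, and 51.2% ± 10.84 with DAC and 49.41% ± 4.25 untreated at 144 h. In ELF-153 it was 43.45% ± 6.25 with DAC and 25.16% ± 11.1 untreated at 96 h, and 46.99% ± 5.81 with DAC and 24.29% ± 12.07 untreated at 144 h (SD, n = 3 each). Relative to the deposited scaling, TMM scaling (trimmed mean of M-values) moved the median log2 change of all features by 0.12 in UCSD-AML1 at 96 h and by 0.17 at 144 h, and by -0.05 and -0.02 in ELF-153. With it, the share of higher values among those called in UCSD-AML1 at 144 h was 53.7%, in place of 43.3%. In these bulk samples fewer cells of a kind and less RNA per cell cannot be told apart.

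Levels are given as scaled reads, the deposited reads per transcript divided by 1 factor per library, summed to the gene. They can be compared between libraries of 1 harvest but not between genes or between the 2 harvests, because reads shared by several transcripts may be missing and the tables were scaled separately. ACTB, for example, averaged 622 reads at 96 h over 13 transcripts. CEBPA, CEBPB, CEBPD and CEBPE each have a single transcript, whereas SPI1, GFI1, IRF8, KLF4 and EGR2 have several, so that their sums may leave out reads. Log2 changes are on the log2(scaled reads + 1) scale, which understates the change of low genes, and adjusted p-values are from limma with Benjamini-Hochberg adjustment over 18799 features at 96 h or 18293 at 144 h. A change was called at an adjusted p below 0.05.

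With DAC, CEBPA was lower in both lines and at both harvests, CEBPD was lower in UCSD-AML1, and CEBPE and IRF8 moved apart between the lines. CEBPE fell in UCSD-AML1 and rose in ELF-153, and IRF8 rose in ELF-153. SPI1 was lower in UCSD-AML1 at 144 h, and CEBPB and GFI1 passed the test in none of the 4 comparisons of DAC-treated with untreated cells. In UCSD-AML1, 0 of the 7 genes tested were higher and 3 were lower at 96 h, where 19.7% of all features were called higher and 19.6% lower (39.2% in either direction). At 144 h in UCSD-AML1, 0 were higher and 4 lower, against 20% higher and 26.2% lower among all features (46.1% in either direction). In ELF-153, 2 were higher and 1 lower at 96 h, against 20.1% and 12.7% of all features (32.7% in either direction). At 144 h in ELF-153, 2 were again higher and 1 lower, against 20.4% and 18% of all features (38.4% in either direction). The median log2 change of the 7 genes was -0.94 and -1.12 in UCSD-AML1 at 96 h and 144 h, where that of all features was -0.02 and -0.12. In ELF-153 it was 0.00 and -0.14, where that of all features was 0.16 and 0.11. With the share of mitochondrial ribosomal RNA as a covariate, the medians of the 7 genes were -0.09 and -1.07 in UCSD-AML1 and 0.60 and 0.40 in ELF-153. In UCSD-AML1 more markers of AML cells were lower than higher: of 8 tested 1 was higher and 4 lower at 96 h (median -0.32), and of 7 tested 0 were higher and 4 lower at 144 h (median -1.02), CD33 among them. In ELF-153, of 8 AML markers tested 2 were higher and 2 lower at 96 h (median 0.67), and of 7 tested 1 was higher and 3 lower at 144 h (median 0.34). The part of these markers in the falls of the transcription factors was not tested.

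**Figure D1:**
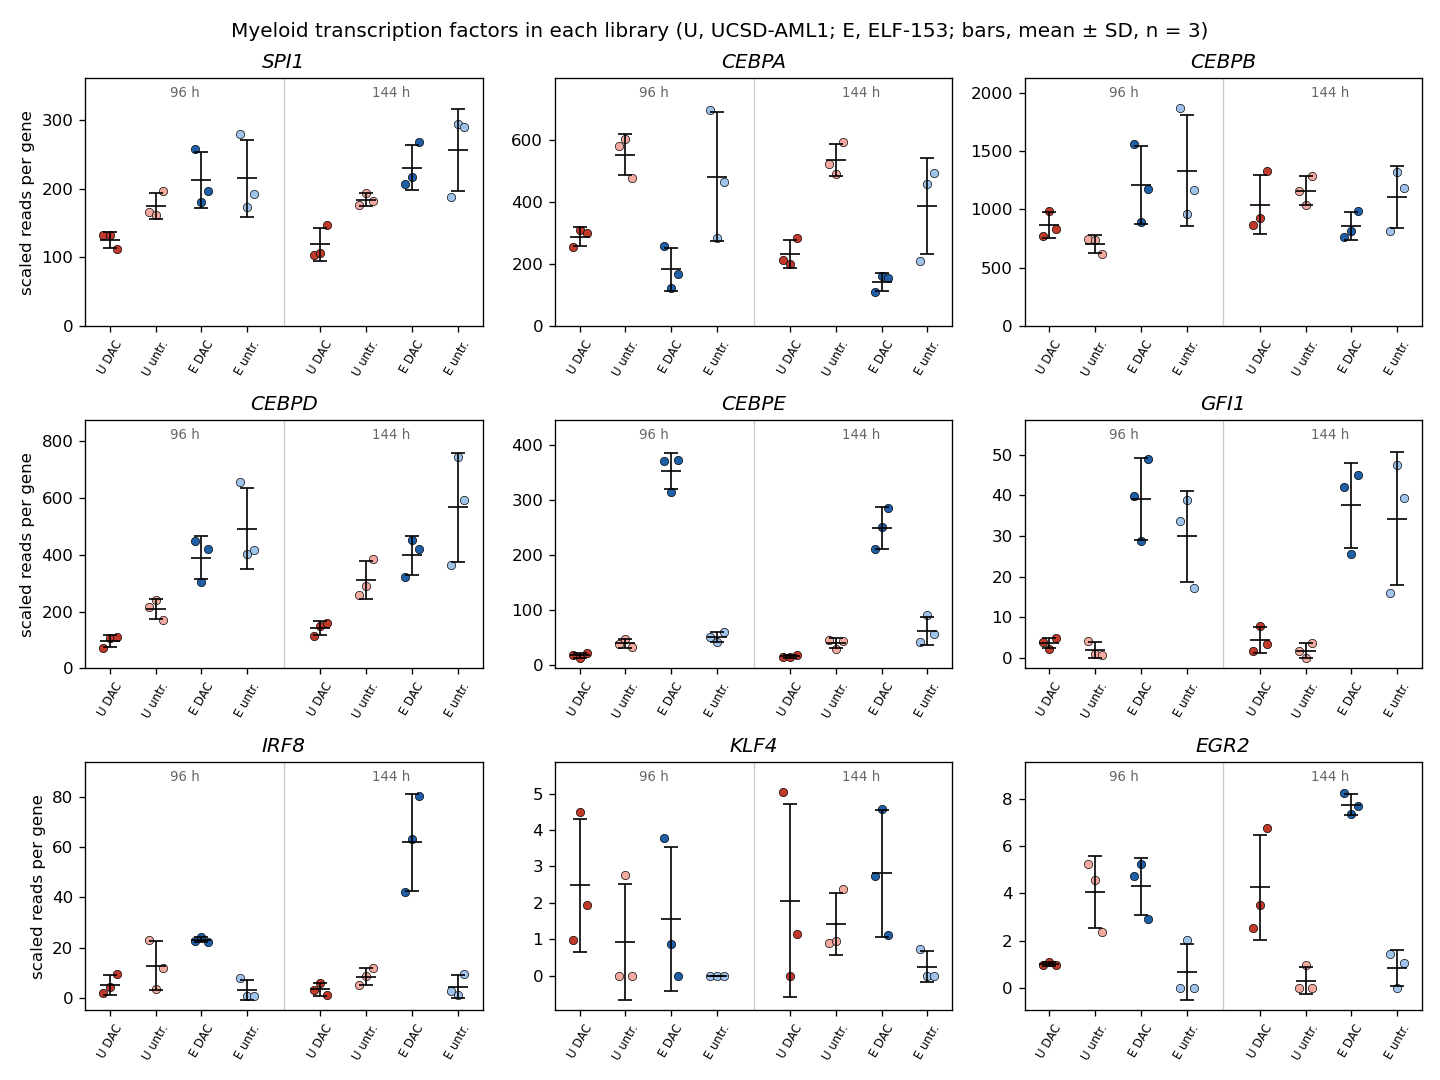
Scaled reads of each of the 9 genes (vertical axes, linear and different for each gene) in every library, by group along the horizontal axis (U, UCSD-AML1; E, ELF-153; dark points, DAC; light points, untreated), with bars for the mean ± SD of 3 libraries. CEBPA is lower with DAC in both lines at both harvests, DAC-treated ELF-153 libraries have 210 to 373 scaled reads of CEBPE, and KLF4 and EGR2 stay below 10 scaled reads in every library.

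SPI1 was lower with DAC in UCSD-AML1 at 144 h. In UCSD-AML1 at 96 h it had 132, 133 and 112 scaled reads with DAC, against 166, 161 and 197 untreated. At 144 h it had 104, 107 and 147 with DAC, against 176, 194 and 182 untreated. All treated UCSD-AML1 libraries lay below all untreated ones at both harvests. The log2 change was -0.47 ± 0.21 (SE) at 96 h, with an adjusted p of 0.095, and -0.64 ± 0.22 at 144 h, with an adjusted p of 0.0294. The second value did not pass in edgeR, DESeq2, limma-voom or limma with TMM scaling, where it lay between -0.44 and -0.41 with adjusted p-values of 0.131 to 0.203. It also lost the call with no filter on low values (adjusted p = 0.063) and without any 1 of replicates 1 and 2 of the treated and of the untreated group (adjusted p between 0.0589 and 0.0963). In ELF-153 SPI1 averaged 212 ± 40.3 with DAC and 215 ± 56.4 untreated at 96 h, and 230 ± 33.3 with DAC and 257 ± 59.5 untreated at 144 h (SD, n = 3 each). These groups overlapped, and the adjusted p-values were 0.994 and 0.651.

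Of the 4 SPI1 transcripts in the tables, 3 held reads. The transcript ENST00000378538 held 53.8% of SPI1 reads (203 of 377) in DAC-treated and 71.1% (394 of 554) in untreated UCSD-AML1 cells at 144 h. ENST00000227163 held 37.1% with DAC and 24% untreated in the same groups. At 96 h the share of ENST00000378538 in UCSD-AML1 was 65.9% with DAC and 69.5% untreated. In ELF-153 it was 65.2% with DAC and 58.3% untreated at 96 h, and 54.9% with DAC and 59.1% untreated at 144 h. The order of the shares thus differed between the 4 comparisons, and no test was made on these pooled reads.

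CEBPA was lower with DAC in every comparison. In UCSD-AML1 at 96 h it had 254, 311 and 300 scaled reads with DAC, against 580, 603 and 477 untreated. At the later harvest it had 213, 200 and 286 with DAC, against 524, 490 and 593 untreated. The groups did not overlap, and the treated means were 0.521 and 0.435 of the untreated means. In ELF-153 at 96 h CEBPA had 258, 124 and 168 scaled reads with DAC, against 697, 283 and 465 untreated. By 144 h it had 110, 161 and 157 with DAC, against 210, 460 and 493 untreated. Here too no libraries overlapped, although the lowest untreated library lay close to the highest treated one at 96 h. The treated means in ELF-153 were 0.381 of the untreated mean at 96 h and 0.368 at 144 h.

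The log2 change of CEBPA was -0.94 ± 0.30 in UCSD-AML1 and -1.36 ± 0.30 in ELF-153 at 96 h (adjusted p = 0.0254 and 0.00366), and -1.21 ± 0.29 and -1.36 ± 0.29 at 144 h (adjusted p = 0.00498 and 0.00261). The change in ELF-153 minus that in UCSD-AML1 was -0.42 ± 0.43 at 96 h and -0.15 ± 0.42 at 144 h, with adjusted p-values of 0.497 and 0.804. The value in UCSD-AML1 at 96 h was close to the threshold: it was -0.80 with an adjusted p of 0.0505 in edgeR and -0.79 with an adjusted p of 0.0602 under TMM scaling. It also lost the call without any 1 of 4 libraries (replicates 1 and 2 of the treated and of the untreated group), with adjusted p-values between 0.0508 and 0.0899.

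Within groups CEBPA tended to be lower in libraries with a higher mitochondrial ribosomal RNA share, but not in every group. Among the untreated ELF-153 libraries at 96 h the shares were 13.1%, 34.96% and 27.42%, and CEBPA was highest in the library with the lowest share and lowest in the one with the highest. At 144 h replicate 1 of this group had a share of 38.2%, against 16.56% and 18.1% in the other libraries, and its CEBPA value of 210 was the lowest of the 3. In DAC-treated ELF-153 at 144 h the order was the other way, with shares of 42.77%, 53.62% and 44.59% and CEBPA at 110, 161 and 157. Between the untreated lines at 144 h the mean share was 49.41% in UCSD-AML1 and 24.29% in ELF-153. CEBPA averaged 536 and 388 in these groups, whose ranges overlapped. With this share as a covariate, the log2 change of CEBPA at 96 h was -0.12 in UCSD-AML1 (adjusted p = 0.653) and -0.19 in ELF-153 (adjusted p = 0.634). At 144 h it was -1.15 in UCSD-AML1 (adjusted p = 0.000222), where the shares of the treated and untreated groups overlapped, and -0.61 in ELF-153 (adjusted p = 0.142). The part of this share in the fall of CEBPA was not tested beyond this fit, since the share and the treatment moved together in 3 of the 4 comparisons and cannot be told apart there.

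**Figure D2:**
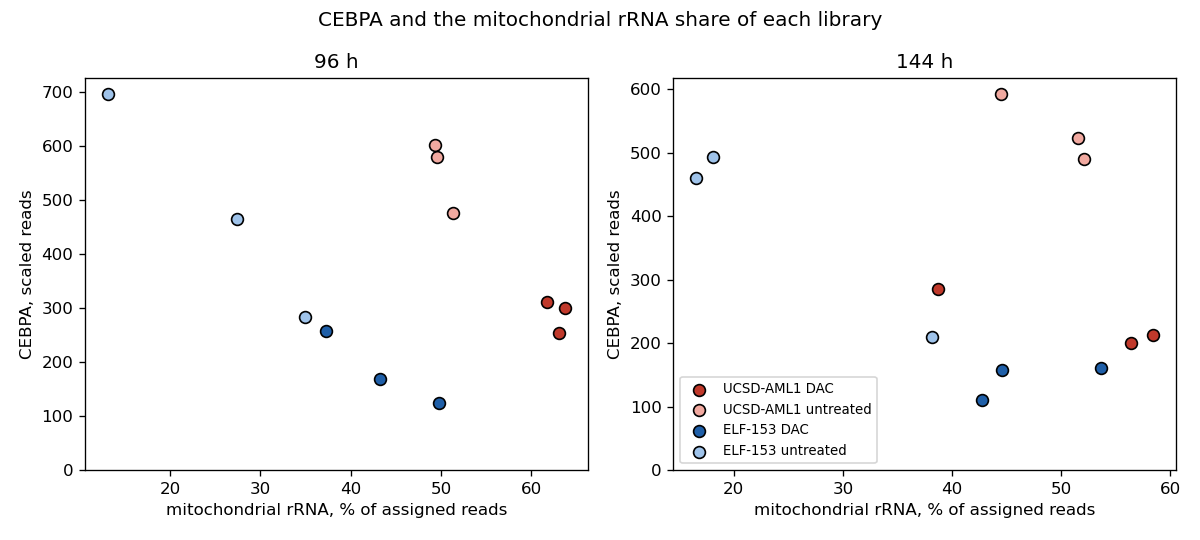
CEBPA in scaled reads (vertical axis, linear, from 0) against the percentage of assigned reads on mitochondrial ribosomal RNA (horizontal axis) in each library, at 96 h on the left and 144 h on the right; dark points are DAC-treated and light points untreated libraries. At 144 h the treated UCSD-AML1 libraries lie between 200 and 286 and the untreated ones between 490 and 593, at shares that overlap.

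RNAs annotated next to CEBPA were low but measurable. CEBPA-DT, a long non-coding RNA transcribed divergently from the same promoter region, averaged 2.54 ± 3.01 scaled reads in DAC-treated and 15.7 ± 4.05 in untreated ELF-153 cells at 96 h (SD, n = 3 each). Its log2 change there was -2.62 ± 0.61, with an adjusted p of 0.00456. The change was -1.37 ± 0.53 in ELF-153 at 144 h (adjusted p = 0.0561), and -1.20 ± 0.61 and -0.89 ± 0.53 in UCSD-AML1 at 96 h and 144 h (adjusted p = 0.134 and 0.182). AC008738.5, an antisense RNA that overlaps CEBPA, had a log2 change of -2.80 ± 0.82 in ELF-153 at 96 h (adjusted p = 0.0176) and passed in no other comparison with DAC. Whether the counting used the strand is not stated, so that reads of CEBPA and of an overlapping antisense RNA may not be separated.

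CEBPB, which in myeloid cells carries the response to inflammatory cytokines and emergency granulopoiesis, passed the test in neither line. In UCSD-AML1 at 96 h it had 776, 987 and 832 scaled reads with DAC, against 751, 742 and 620 untreated, and these groups did not overlap. Its log2 change was 0.29 ± 0.25 with an adjusted p of 0.37. In ELF-153 at 96 h it had 1557, 893 and 1177 with DAC, against 1866, 958 and 1166 untreated, and the groups overlapped almost fully. At the later harvest it averaged 1042 ± 253 with DAC and 1161 ± 125 untreated in UCSD-AML1, and 858 ± 117 with DAC and 1105 ± 263 untreated in ELF-153 (SD, n = 3 each). The adjusted p-values were 0.529 and 0.232. With the mitochondrial share as a covariate its log2 change at 96 h was 0.94 in UCSD-AML1 (adjusted p = 0.000275) and 0.81 in ELF-153 (adjusted p = 0.0085), in place of -0.12 in ELF-153. Without replicate 1 of the untreated ELF-153 libraries it was -0.55 in ELF-153 at 144 h, with an adjusted p of 0.0411.

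CEBPD, a C/EBP factor induced by interleukin 6 and by growth arrest, was lower with DAC in UCSD-AML1. At 96 h it had 72.8, 105 and 110 scaled reads with DAC, against 217, 239 and 169 untreated in this line. By 144 h it had 115, 150 and 160 with DAC, against 257, 289 and 385 untreated. The groups did not overlap at either harvest. The log2 change was -1.12 ± 0.25 at 96 h (adjusted p = 0.00261) and -1.12 ± 0.26 at 144 h (adjusted p = 0.00419). In ELF-153 at 96 h CEBPD had 448, 303 and 419 with DAC, against 656, 401 and 418 untreated, and at 144 h it had 321, 452 and 421 with DAC, against 364, 746 and 592 untreated. These groups overlapped, and the log2 changes of -0.32 ± 0.25 and -0.46 ± 0.26 did not pass (adjusted p = 0.346 and 0.187). Without replicate 1 of the untreated ELF-153 libraries the value at 144 h was -0.75, with an adjusted p of 0.0207. The change in ELF-153 minus that in UCSD-AML1 was 0.81 ± 0.35 at 96 h and 0.66 ± 0.37 at 144 h. Neither passed (adjusted p = 0.104 and 0.194), so a difference between the lines in the response of CEBPD was not shown in this fit. With the mitochondrial share as a covariate it passed at both harvests, at 1.02 and 1.2 (adjusted p = 0.00975 and 0.0309). It also passed at 96 h without replicate 1 of untreated ELF-153 (1.03, adjusted p = 0.0303).

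CEBPE, the granulocyte maturation factor, moved in opposite directions. In ELF-153 at 96 h it had 370, 314 and 373 scaled reads with DAC, against 50.4, 42 and 60.1 untreated. At the later harvest it had 210, 251 and 285 with DAC, against 40.7, 90 and 55.5 untreated. The treated libraries stood far above the untreated ones, with a ratio of means of 6.93 at 96 h and 4.01 at 144 h. In UCSD-AML1 at 96 h CEBPE had 17.7, 12.4 and 21.4 scaled reads with DAC, against 37.7, 47.7 and 32.3 untreated. At 144 h it had 13.4, 14.9 and 18 with DAC, against 46, 29.7 and 42.9 untreated. In this line every treated library lay below every untreated one, and the ratios of means were 0.437 and 0.39.

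The log2 change of CEBPE was 2.78 ± 0.26 in ELF-153 and -1.16 ± 0.26 in UCSD-AML1 at 96 h (adjusted p = 1.95e-06 and 0.00265). By 144 h it was 2.05 ± 0.30 in ELF-153 and -1.29 ± 0.30 in UCSD-AML1 (adjusted p = 0.000131 and 0.00371). The difference between these changes, ELF-153 minus UCSD-AML1, was 3.94 ± 0.36 at 96 h and 3.34 ± 0.42 at 144 h (adjusted p = 1.05e-05 and 0.000183). Among the 7 genes, CEBPE and IRF8 passed this test of the difference at both harvests, both with a higher change in ELF-153. Of all features, 16.4% passed with a higher and 8.62% with a lower change in ELF-153 at 96 h (25% in either direction), and 19.4% and 10.2% at 144 h (29.6% in either direction). The CEBPE values held under all alternatives run: the log2 change with DAC lay between 1.79 and 2.96 in ELF-153 and between -1.48 and -0.91 in UCSD-AML1 over both harvests.

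IRF8, an interferon regulatory factor of monocyte and dendritic cell development, rose with DAC in ELF-153, where untreated cells held few reads. At 96 h it had 22.7, 24.4 and 22.5 scaled reads in DAC-treated ELF-153 libraries, against 7.84, 1.02 and 0.911 in untreated ones. At the later harvest it had 42, 63.3 and 80.2 with DAC, against 2.9, 1.18 and 9.61 untreated. The groups were far apart, with 75 reads against 9 over the 3 libraries at 96 h and 188 against 14 at 144 h. The log2 change was 2.90 ± 0.70 at 96 h (adjusted p = 0.00599) and 3.76 ± 0.61 at 144 h (adjusted p = 0.000316). Over the alternatives that tested IRF8 it lay between 1.53 and 4.22 and between 2.49 and 4.38, past the threshold in each. IRF8 was missing from the fit on features with a mean of 50 or more. It passed the filter only with the treated ELF-153 libraries, so that its testing was tied to this rise. With no filter the adjusted p of the rise was 0.00408 at 96 h and 0.000135 at 144 h (limma). In UCSD-AML1 IRF8 had 1.97, 4.5 and 9.71 with DAC, against 23.1, 3.67 and 11.8 untreated at 96 h, and 3.36, 6.12 and 1.13 with DAC, against 5.31, 8.63 and 11.9 untreated at 144 h. These groups overlapped, with log2 changes of -1.01 ± 0.70 and -1.19 ± 0.61 (adjusted p = 0.272 and 0.127). The difference between the changes, ELF-153 minus UCSD-AML1, was 3.91 ± 0.99 at 96 h and 4.95 ± 0.86 at 144 h (adjusted p = 0.0127 and 0.00172).

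Reads of IRF8 fell on 8 of its 11 transcripts. The protein-coding transcript ENST00000268638 held 142 of 188 reads (75.5%) in DAC-treated and 13 of 14 reads (92.9%) in untreated ELF-153 cells at 144 h. At 96 h it held 52 of 75 reads (69.3%) with DAC and 3 of 9 reads (33.3%) untreated. Most of the reads in treated ELF-153 cells thus lay on this coding transcript, while the untreated groups held too few reads for a share to be read.

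**Figure D3:**
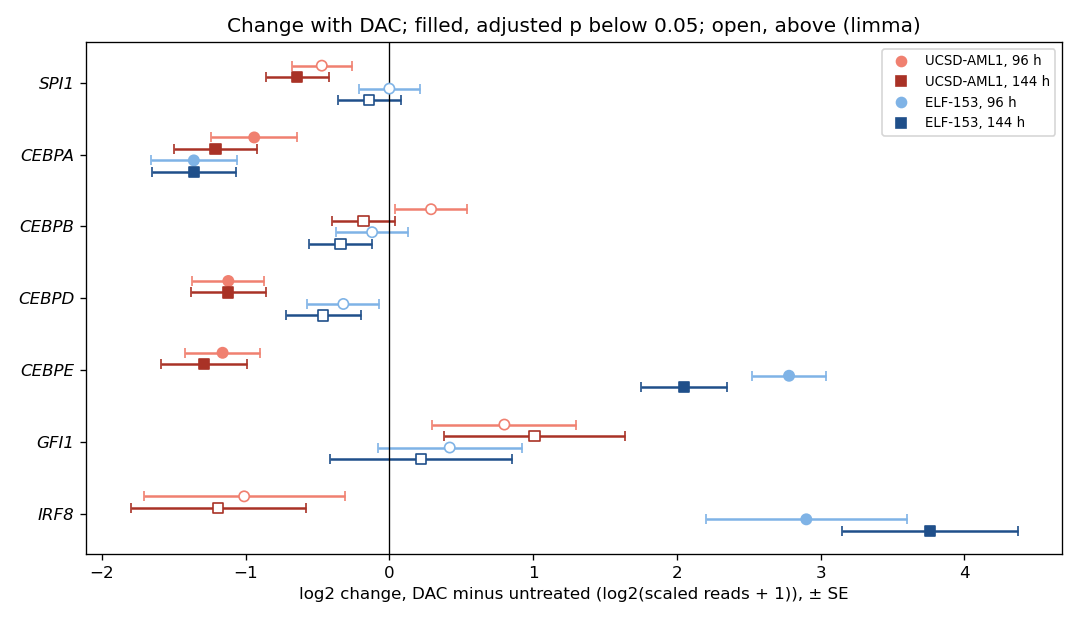
Log2 change of scaled reads + 1, DAC minus untreated (horizontal axis, ± SE), of the 7 genes that passed the filter (vertical axis), in each line and harvest; filled points had an adjusted p below 0.05. CEBPA lies between -1.36 and -0.94 in all 4 comparisons, whereas CEBPE and IRF8 lie at 2.05 to 3.76 in ELF-153 and at -1.29 to -1.01 in UCSD-AML1.

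GFI1, the granulocyte-favouring repressor, was higher in ELF-153, through whose libraries alone it passed the filter. No change with DAC passed in the fit used here. In ELF-153 it had 39.8, 28.8 and 48.9 scaled reads with DAC, against 33.6, 38.9 and 17.3 untreated at 96 h, and 42, 25.7 and 45 with DAC, against 16, 47.4 and 39.5 untreated at 144 h. The groups overlapped, and the log2 changes were 0.42 ± 0.50 and 0.22 ± 0.63 (adjusted p = 0.55 and 0.811). In UCSD-AML1 it averaged 3.68 ± 1.32 with DAC and 1.97 ± 1.93 untreated at 96 h, and 4.31 ± 3.20 with DAC and 1.78 ± 1.79 untreated at 144 h (SD, n = 3 each). These values rest on 11 reads with DAC and 6 untreated at 96 h and on 14 with DAC and 5 untreated at 144 h, and did not pass (adjusted p = 0.221 and 0.205).

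Much of the GFI1 signal was not on coding transcripts. The processed transcript ENST00000483490 held 53.6% of GFI1 reads in DAC-treated and 78.2% in untreated ELF-153 cells at 96 h, and 53% with DAC and 66.7% untreated at 144 h. The coding transcript ENST00000427103 held 26.4% with DAC and 9.2% untreated at 96 h, and 29.6% with DAC and 13.1% untreated at 144 h. Without retained-intron and processed transcripts the log2 change of GFI1 in UCSD-AML1 at 96 h was 1.55, with an adjusted p of 0.0374. That value compares 6 coding reads over the treated libraries with none in the untreated ones.

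KLF4, a Krüppel-like factor that promotes monocyte formation, had at most 5.04 scaled reads in any library. Over the 3 libraries of each group it had 7 reads with DAC and 3 untreated in UCSD-AML1 at 96 h, and 7 with DAC and 4 untreated at 144 h. In ELF-153 it had 5 reads with DAC and 0 untreated at 96 h, and 9 with DAC and 1 untreated at 144 h. The scaled ratio of the last pair was 9.19, with an exact 95% interval of 1.27 to 403 that covers counting error only. KLF4 passed in no comparison when the filter was lifted.

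EGR2, a zinc-finger factor of macrophage development, had at most 8.23 scaled reads. In ELF-153 at 144 h it had 8.23, 7.34 and 7.69 scaled reads with DAC, against 1.45, 0 and 1.07 untreated, which is 24 reads against 3. At 96 h it had 4.74, 5.23 and 2.94 with DAC, against 0, 2.05 and 0 untreated in this line. In UCSD-AML1 it had 2.52, 3.5 and 6.76 with DAC, against 0, 0.959 and 0 untreated at 144 h. The treated libraries lay above the untreated ones in these 3 comparisons, while in UCSD-AML1 at 96 h they lay below, at 0.984, 1.12 and 0.971 with DAC against 5.24, 4.58 and 2.36 untreated. The ratio of pooled reads, scaled by the deposited factors, was 6.44 (95% counting interval, 1.48 to 58.4) in ELF-153 at 96 h and 8.17 (2.48 to 42.4) in ELF-153 at 144 h. It was 12.2 (1.83 to 517) in UCSD-AML1 at 144 h and 0.26 (0.0476 to 0.948) in UCSD-AML1 at 96 h. With no filter on low values, the log2 changes were 1.84 ± 0.58, 2.35 ± 0.57, 1.99 ± 0.57 and -1.27 ± 0.58 in the same order (adjusted p = 0.0324, 0.00541, 0.0157 and 0.142, limma over 39390 features at 96 h and 38145 at 144 h). The difference between the changes of the lines passed at 96 h, at 3.12 ± 0.82 (adjusted p = 0.0184), and not at 144 h, at 0.36 ± 0.80 (adjusted p = 0.782).

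The lines were also compared with each other at the same treatment, as ELF-153 minus UCSD-AML1. Among untreated cells at 96 h, CEBPB, CEBPD and GFI1 were higher in ELF-153 and IRF8 lower, so that 3 of 7 genes were higher and 1 lower, against 22.8% and 34.7% of all features (57.5% in either direction). GFI1 had the largest of these log2 differences, 3.49 ± 0.50 (adjusted p = 4.8e-05), with 29.9 ± 11.3 scaled reads in ELF-153 and 1.97 ± 1.93 in UCSD-AML1 (SD, n = 3 each). GFI1 passed the filter through ELF-153 libraries alone, so its place in these counts was tied to this difference. With no filter its adjusted p was 2.03e-05 at 96 h and 0.000107 at 144 h (limma). In untreated ELF-153 the processed transcript ENST00000483490 held 68 of 87 GFI1 reads at 96 h and 66 of 99 at 144 h. CEBPD differed by 1.21 ± 0.25 (adjusted p = 0.000874), CEBPB by 0.86 ± 0.25 (adjusted p = 0.00849) and IRF8 by -1.80 ± 0.70 (adjusted p = 0.0405). The ranges of IRF8 overlapped between the untreated lines, 0.911 to 7.84 in ELF-153 and 3.67 to 23.1 in UCSD-AML1. This call was lost in edgeR, DESeq2, limma-voom and under TMM scaling (adjusted p between 0.0581 and 0.0801), and without replicate 1 or 3 of untreated UCSD-AML1 or replicate 2 or 3 of untreated ELF-153 (adjusted p between 0.0983 and 0.178). At 144 h only CEBPD (0.83 ± 0.26, adjusted p = 0.0192) and GFI1 (3.79 ± 0.63, adjusted p = 0.000272) passed among untreated cells, so that 2 of 7 were higher in ELF-153 and 0 lower, against 28.9% and 22.9% of all features (51.8% in either direction). The call of CEBPD at 144 h was lost without replicate 1 or 2 of untreated UCSD-AML1 or replicate 2 or 3 of untreated ELF-153 (adjusted p between 0.0567 and 0.096). CEBPB differed by -0.09 ± 0.22 at 144 h (adjusted p = 0.734). CEBPA, CEBPE and SPI1 did not pass between the untreated lines at either harvest in the fit used here. In other fits CEBPE passed at 96 h under TMM scaling (0.64, adjusted p = 0.0471), and SPI1 at 96 h in edgeR (0.58, adjusted p = 0.0453). At 144 h CEBPA passed in limma-voom (-0.74, adjusted p = 0.0436), and SPI1 (0.66, adjusted p = 0.0155) and CEBPE (0.85, adjusted p = 0.0272) passed without replicate 1 of untreated ELF-153. With the mitochondrial share as a covariate, CEBPA was lower in untreated ELF-153, at -1.88 at 96 h and -1.38 at 144 h (adjusted p = 0.000237 and 0.00399), and CEBPD passed at neither harvest. CEBPB then differed by -0.39 at 96 h (adjusted p = 0.254), so that its direction was not kept, and by -0.79 at 144 h (adjusted p = 0.00498).

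Among DAC-treated cells, 5 of the 7 genes were higher in ELF-153 and 0 lower at both harvests, against 20.6% higher and 21.9% lower among all features at 96 h (42.5% in either direction), and 29.7% and 14.5% at 144 h (44.2% in either direction). They were SPI1, CEBPD, CEBPE, GFI1 and IRF8. GFI1 passed the filter through ELF-153 libraries alone and IRF8 only with the treated ELF-153 libraries. The place of these genes in the count was thus tied to the filter. CEBPE averaged 352 ± 33.3 in treated ELF-153 and 17.1 ± 4.53 in treated UCSD-AML1 cells at 96 h, a log2 difference of 4.31 ± 0.26 (adjusted p = 1.51e-08). At 144 h it averaged 249 ± 37.7 and 15.4 ± 2.34 in the same order, a log2 difference of 3.93 ± 0.30 (adjusted p = 3.49e-07). SPI1 differed by 0.74 ± 0.21 at 96 h and 0.95 ± 0.22 at 144 h (adjusted p = 0.0123 and 0.00327), and did not pass at 144 h under TMM scaling (0.57, adjusted p = 0.0562) or at 96 h without replicate 1 of treated ELF-153 (0.59, adjusted p = 0.0636). CEBPD differed by 2.02 ± 0.25 and 1.48 ± 0.26, GFI1 by 3.11 ± 0.50 and 3.00 ± 0.63, and IRF8 by 2.11 ± 0.70 and 3.91 ± 0.61 at 96 h and 144 h, with adjusted p-values between 1.48e-05 and 0.0253. The call of IRF8 at 96 h was lost without any 1 of 5 of the 6 treated libraries (adjusted p between 0.0553 and 0.112). CEBPA, at -0.71 at both harvests, and CEBPB did not pass. Under TMM scaling both were lower in ELF-153 at 144 h, at -1.09 and -0.64 (adjusted p = 0.01 and 0.0343). With the mitochondrial share as a covariate, 3 genes were higher and 2 lower in treated ELF-153 at 96 h, and 5 were higher and 2 lower at 144 h. In this fit 3879 of 18799 features were higher and 3328 lower at 96 h, and 7214 of 18293 higher and 3259 lower at 144 h. At 96 h SPI1 then differed by 0.10 (adjusted p = 0.795) and IRF8 by 0.71 (adjusted p = 0.629), and CEBPA differed by -1.95 (adjusted p = 2.44e-05). Under TMM scaling the median log2 difference of all features between the treated lines at 144 h was lower by 0.37, and the share of higher values among those called was 47.6%, in place of 67.2%.

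By group means, the order of the levels at 96 h was the same for CEBPB, CEBPD and SPI1 at its upper end, with untreated ELF-153 first and DAC-treated ELF-153 second, and these neighbours overlapped for all 3 genes. For CEBPE the order at both harvests was DAC-treated ELF-153, untreated ELF-153, untreated UCSD-AML1 and DAC-treated UCSD-AML1, and only the 2 untreated groups overlapped. For CEBPA at 96 h the order was untreated UCSD-AML1, untreated ELF-153, DAC-treated UCSD-AML1 and DAC-treated ELF-153, and each neighbouring pair overlapped. The order was the same at 144 h, where the treated groups did not overlap. For GFI1 the treated ELF-153 group was first and the untreated one second at both harvests, and these overlapped, while both lay above all UCSD-AML1 libraries. For IRF8 the treated ELF-153 group was first at both harvests, and at 96 h its range overlapped that of untreated UCSD-AML1 cells.

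The genes whose pattern was most like each of the 7 were found by Pearson's r over the 12 libraries of each table, averaged over both tables, among 16783 genes. The libraries share group and scaling, so the values are a description. For CEBPA they were the pseudogene GAPDHP61 and STOML2 (mean r of 0.96 for both), for CEBPD TMSB10 (0.98) and AC116347.1 (0.97), and for CEBPE they included SDS (0.94). For SPI1 they were AC126773.3 and UBE2SP2 (0.93 for both), for CEBPB ALKBH7 (0.85) and FBXO46 (0.84), for GFI1 AC138969.1 (0.97) and ZNF510 (0.96), and for IRF8 AC002467.1 (0.87) and TRDC (0.86). None of the 7 was among the 2 genes most like another of them.

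Other regulators of the same network were counted in the same way. Of 33 such genes listed, 31 were tested. In UCSD-AML1, 10 were higher and 4 lower at 96 h (median log2 change 0.31), and 13 were higher and 5 lower at 144 h (median 0.40), where 19.7% and 20% of all features were called higher and 19.6% and 26.2% lower. With the mitochondrial share as a covariate the count at 96 h was 9 higher and 7 lower, against 3718 higher and 4677 lower among 18799 features. In ELF-153, 13 were higher and 1 lower at 96 h (median 0.77), and 17 were higher and 3 lower at 144 h (median 1.02), where 20.1% and 20.4% of all features were called higher and 12.7% and 18% lower. EGR3 and EGR1, immediate-early zinc-finger factors related to EGR2, rose in ELF-153. EGR3 averaged 102 ± 39.1 scaled reads with DAC and 0.987 ± 1.03 untreated at 96 h, a log2 change of 5.77 ± 0.43 (adjusted p = 2.42e-07), and rose by 5.50 ± 0.35 at 144 h (adjusted p = 1.01e-07). EGR1 rose by 3.11 ± 0.43 at 96 h and 3.36 ± 0.34 at 144 h in ELF-153, and by 2.08 ± 0.34 in UCSD-AML1 at 144 h, with adjusted p-values between 5.22e-06 and 0.00032. In UCSD-AML1 EGR3 fell by 1.16 ± 0.43 on the log2 scale at 96 h (adjusted p = 0.045).

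SPIB, the ETS factor closest to PU.1, rose in both lines. It averaged 18.1 ± 5.01 with DAC and 1.05 ± 1.82 untreated in UCSD-AML1, and 69.4 ± 25.2 with DAC and 13.6 ± 2.73 untreated in ELF-153 at 96 h, with log2 changes of 3.54 ± 0.54 and 2.21 ± 0.54 (adjusted p = 0.000175 and 0.00628). IRF4, a relative of IRF8, rose by 2.23 ± 0.60 at 96 h and 3.78 ± 0.60 at 144 h in ELF-153 (adjusted p = 0.0112 and 0.000278). CEBPG, a C/EBP factor without a transactivation domain, was lower in ELF-153 at 96 h (-0.94 ± 0.31, adjusted p = 0.033) and 144 h (-1.12 ± 0.22, adjusted p = 0.00126) and in UCSD-AML1 at 144 h (-1.34 ± 0.22, adjusted p = 0.000324). TRIB2, a pseudokinase known to promote degradation of C/EBPα protein, rose in both lines at 144 h and in UCSD-AML1 at 96 h. In UCSD-AML1 it rose by 1.84 ± 0.53 in UCSD-AML1 at 96 h and by 2.50 ± 0.34 at 144 h (adjusted p = 0.0142 and 7.32e-05), at 16.6 ± 7.8 scaled reads with DAC and 2 ± 0.911 untreated at 144 h, and in ELF-153 at 144 h it averaged 1036 ± 65.3 with DAC and 366 ± 70.9 untreated (log2 change 1.52 ± 0.34, adjusted p = 0.00304). RUNX1, a core haematopoietic factor, rose by 1.33 ± 0.23 at 96 h and 1.34 ± 0.24 at 144 h in UCSD-AML1 (adjusted p = 0.000493 and 0.000583), and its changes of 0.23 and 0.10 in ELF-153 did not pass. MYB, a progenitor factor, was lower in UCSD-AML1 at 144 h (-1.44 ± 0.51, adjusted p = 0.0348) and passed in no other comparison with DAC.

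Further regulators with the largest called changes were KLF2 (1.97) up and IRF5 (-1.43) and ID1 (-1.28) down in UCSD-AML1 at 96 h, ID1 (-1.76) down in UCSD-AML1 at 144 h, DDIT3 (2.30) up in ELF-153 at 96 h, and IRF5 (-1.08) and ID1 (-0.69) down in ELF-153 at 144 h, all as log2 changes.

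Genes known as targets of PU.1 or C/EBP factors changed in both directions. Of 30 listed, 18 were tested at 96 h and 17 at 144 h. In ELF-153, 10 were higher and 3 lower at both harvests, with medians of 1.76 and 1.95, against 20.1% and 20.4% of all features called higher, 12.7% and 18% lower, and medians of all features of 0.16 and 0.11. In UCSD-AML1, 7 were higher and 4 lower at both harvests, with medians of 0.97 and 0.59, against 19.7% and 20% of all features called higher, 19.6% and 26.2% lower, and medians of all features of -0.02 and -0.12. CYBB, the catalytic subunit of the phagocyte NADPH oxidase, averaged 724 ± 289 with DAC and 13.1 ± 7.31 untreated in ELF-153 at 96 h, a log2 change of 5.73 ± 0.35 (adjusted p = 4.26e-08), and rose by 6.73 ± 0.66 at 144 h (adjusted p = 6.16e-06). S100A8, a calcium-binding protein of phagocytes, rose by 3.22 ± 0.67 and 4.17 ± 0.62 in ELF-153 at 96 h and 144 h, and LYZ, lysozyme, by 2.80 ± 0.30 and 2.84 ± 0.21 (adjusted p between 3.53e-07 and 0.00225). In UCSD-AML1 LYZ rose by 1.99 ± 0.21 at 144 h (adjusted p = 1.11e-05), and BTK, a kinase gene, by 1.61 ± 0.22 at 96 h (adjusted p = 8.47e-05). ANPEP, which encodes the surface protease CD13, rose in UCSD-AML1 by 3.12 ± 0.26 at 96 h and 2.96 ± 0.26 at 144 h (adjusted p = 8.85e-07 and 2.71e-06), and its changes of 0.05 and 0.00 in ELF-153 did not pass. CSF2RB, the shared chain of the GM-CSF receptor, rose in UCSD-AML1 by 1.65 ± 0.42 and 2.66 ± 0.40 at 96 h and 144 h (adjusted p = 0.00726 and 0.000161).

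CSF3R, CTSG and CD33 fell in all 4 comparisons. CSF3R, the G-CSF receptor and a C/EBP target, averaged 235 ± 31.6 with DAC and 572 ± 32.6 untreated in UCSD-AML1 at 96 h, and 14 ± 8.03 with DAC and 42 ± 12.9 untreated in ELF-153. Its log2 changes were -1.29 ± 0.39 in UCSD-AML1 and -1.67 ± 0.39 in ELF-153 at 96 h, and -1.70 ± 0.31 and -1.57 ± 0.31 at 144 h (adjusted p between 0.000713 and 0.0174). CTSG, the granule protease cathepsin G, had log2 changes of -2.56 to -1.11, and CD33, a myeloid surface lectin, of -1.71 to -1.06. IL6R, the interleukin 6 receptor, fell in UCSD-AML1, with log2 changes of -1.48 ± 0.15 at 96 h and -1.81 ± 0.19 at 144 h (adjusted p = 4.09e-06 and 1.15e-05), and did not pass in ELF-153. CSF1R, the M-CSF receptor and a PU.1 target, was higher in ELF-153 at 96 h (2.04 ± 0.54, adjusted p = 0.0103), at 10.7 ± 4.36 scaled reads with DAC and 2.66 ± 3.16 untreated, and did not pass elsewhere.

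**Figure D4:**
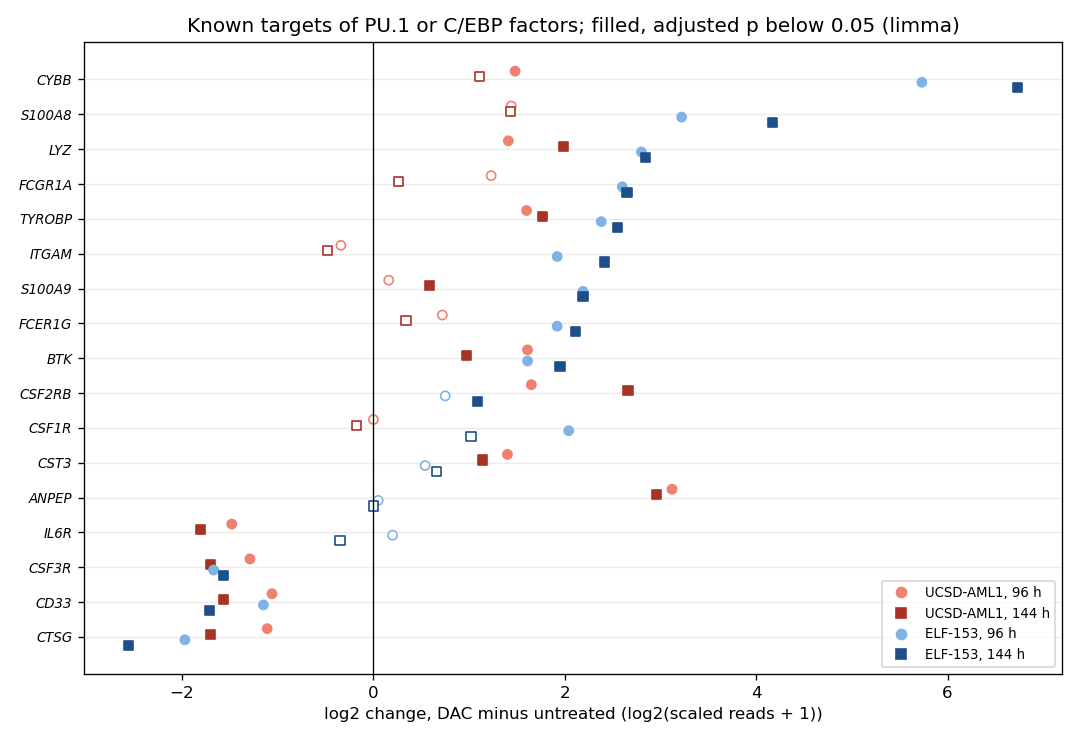
Log2 change of scaled reads + 1, DAC minus untreated (horizontal axis), of the genes known as targets of PU.1 or C/EBP factors that were tested at both harvests (vertical axis, ordered by the change in ELF-153 at 144 h), in each line and harvest; filled points had an adjusted p below 0.05. CYBB reaches 6.73 in ELF-153, and CSF3R, CD33 and CTSG lie below 0 in all 4 comparisons.

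Beside these changes, the summed level of 7 monocyte markers, of which 5 were tested and 5 (CD14, CSF1R, LYZ, S100A8, S100A9) are also on the target list, was 9723 to 10995 scaled reads in DAC-treated and 2034 to 2494 in untreated ELF-153 libraries at 96 h. At 144 h it was 8214 to 11526 with DAC and 1649 to 2436 untreated. In UCSD-AML1 it was 934 to 1149 with DAC and 591 to 763 untreated at 96 h, and 977 to 1110 with DAC and 574 to 744 untreated at 144 h. Over all libraries S100A9 reached 9790 and LYZ 1720 scaled reads. CSF1R and VCAN reached 283 and 233, and S100A8, CD14 and FCGR3A reached 47.2, 11.3 and 0.872. The sums in treated ELF-153 libraries were thus mostly S100A9 and LYZ reads, and do not show a rise of each marker. Of the 5 markers tested, 4 and 3 were higher in ELF-153 at 96 h and 144 h and 2 and 3 in UCSD-AML1, with none lower. Of all features, 20.1% and 20.4% were called higher in ELF-153 and 19.7% and 20% in UCSD-AML1. The shares called lower were 12.7% and 18% in ELF-153 and 19.6% and 26.2% in UCSD-AML1. The summed neutrophil markers, nearly all CSF3R reads, were 7.83 to 26.2 with DAC and 28.2 to 53.8 untreated in ELF-153 at 96 h, and 206 to 277 with DAC and 545 to 610 untreated in UCSD-AML1. The part of these markers in the changes of CEBPE and IRF8 was not tested.

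The factors of the erythroid and megakaryocyte fates, of which GATA1 is known to oppose PU.1, were mostly higher with DAC. Of 9 listed, 8 were tested. In UCSD-AML1, 6 were higher and 1 lower at 96 h and 5 higher and 1 lower at 144 h, with medians of 1.19 and 0.87, against 19.7% and 20% of all features called higher and 19.6% and 26.2% lower. In ELF-153, 5 were higher at 96 h and 6 at 144 h with none lower, with medians of 1.31 and 1.29, against 20.1% and 20.4% of all features called higher and 12.7% and 18% lower. GATA1 averaged 1635 ± 154 scaled reads with DAC and 400 ± 18.4 untreated in UCSD-AML1, and 980 ± 113 with DAC and 32.5 ± 14.6 untreated in ELF-153 at 96 h. Its log2 changes were 2.03 ± 0.24 and 4.95 ± 0.24 (adjusted p = 1.84e-05 and 3.11e-09), and 1.83 ± 0.33 and 5.22 ± 0.33 at 144 h (adjusted p = 0.000773 and 1.03e-07). KLF1, the erythroid Krüppel-like factor, averaged 380 ± 88.8 with DAC and 1.31 ± 1.64 untreated in UCSD-AML1, and 1455 ± 431 with DAC and 155 ± 18.8 untreated in ELF-153 at 96 h. Its log2 changes were 7.58 ± 0.40 and 3.18 ± 0.40 (adjusted p = 1.79e-08 and 3.76e-05). ZFPM1, the GATA1 partner FOG1, rose by 1.67 ± 0.24 in UCSD-AML1 at 96 h (adjusted p = 9.85e-05) and by 2.20 ± 0.34 in ELF-153 at 144 h (adjusted p = 0.000228). LMO2, a bridging protein of the GATA complex, was lower in UCSD-AML1 (-0.75 ± 0.20 and -1.16 ± 0.18 at 96 h and 144 h, adjusted p = 0.00823 and 0.000196) and higher in ELF-153 (1.69 ± 0.20 and 1.35 ± 0.18, adjusted p = 1.79e-05 and 5.26e-05). GATA2, the progenitor GATA factor, passed in none of the 4 comparisons, with log2 changes of 0.03 to 0.33.

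Of the 5 listed partners through which GFI1 represses its targets, 4 were tested. KDM1A, the histone demethylase LSD1, was lower in all 4 comparisons, with log2 changes of -0.72 ± 0.24 in UCSD-AML1 and -0.94 ± 0.24 in ELF-153 at 96 h, and of -1.20 ± 0.26 and -0.90 ± 0.26 at 144 h (adjusted p between 0.00218 and 0.0268). HDAC2, a histone deacetylase, was lower in UCSD-AML1, with log2 changes of -1.61 ± 0.40 at 96 h and -1.78 ± 0.33 at 144 h (adjusted p = 0.00544 and 0.000927), and did not pass in ELF-153. RCOR1, the corepressor CoREST, rose by 0.81 ± 0.28 in UCSD-AML1 at 144 h (adjusted p = 0.0298). The counts were 0 higher and 2 lower in UCSD-AML1 and 0 higher and 1 lower in ELF-153 at 96 h, and 1 higher and 2 lower in UCSD-AML1 and 0 higher and 1 lower in ELF-153 at 144 h. Of all features, 19.6% were called lower in UCSD-AML1 and 12.7% in ELF-153 at 96 h, and 26.2% and 18% at 144 h. The shares called higher were 19.7% and 20.1% at 96 h, and 20% and 20.4% at 144 h, in the same order of lines. The median log2 change of the 4 partners was -0.37 in UCSD-AML1 and -0.31 in ELF-153 at 96 h, and -0.76 and -0.33 at 144 h.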

How the data were processed

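Stranded total RNA of 24 libraries (2 lines, DAC or untreated, 2 harvests, 3 libraries a group) was sequenced, per the labels. The values deposited by the authors are signal: reads per transcript divided by 1 factor per library, in a table for each harvest. The build was hg19, and DESeq2, HTSeq, STAR, TopHat2 and FastQC were used, per the submitters' processing notes; the step each served, how reads shared by transcripts were treated and the use of strand are not given in the sources used here. A table of repeat elements was not used. Within 0.01, 100% of non-zero values were whole multiples of 1 step per library, which gave back the reads.

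Transcripts were matched by identifier to GENCODE release 29 (181859 of 204940 transcripts, 88.7%, with 97.8% of the value) and summed to 52994 genes; 23081 unmatched transcripts stayed as features. limma 3.58.1 (R 4.3.3) was fitted to log2(value + 1) over the 12 libraries of a table, with group means and a robust trend, on features with at least 10 scaled reads in at least 3 libraries. Tests were made within a table only. Alternatives used edgeR 4.0.16, which called 4358 features higher and 2914 lower with DAC in UCSD-AML1 and 3506 and 2684 in ELF-153 at 96 h, and 4435 and 3774 in UCSD-AML1 and 3517 and 3403 in ELF-153 at 144 h, and DESeq2 1.42.0, limma-voom, TMM scaling, other pseudocounts and filters, a replicate block, the mitochondrial share as a covariate and leaving out each library. Scripts were tested on simulated data.

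The 9 genes and all lists were chosen with earlier results of these data known. Beside the 9 genes, the text names the 3 largest called rises and falls of each list in a comparison (not all repeated here), plus GATA1, GATA2, MYB, RUNX1, CEBPG and CSF1R, annotated neighbours, and the 2 genes most like each of the 7 tested, of which 1 is not reported here. Replicate numbers come from the labels. Deviations of same-numbered treated and untreated libraries correlated above 0.1 in every pair in UCSD-AML1 at 144 h alone (0.12 to 0.26); there a fit with the number as a block called the same count, 4 genes, all lower. RefSeq promoters of CEBPA and CEBPB were printed. List counts under TMM scaling and the covariate were added after seeing the data. Intervals cover counting error only.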

Additional observations from a re-analysis of the deposited data

Results flagged for a closer look

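The change with DAC differed between the lines for 2 of the 7 genes at both harvests, by the test of the difference itself (ELF-153 minus UCSD-AML1, limma), where 25% of all features were called at 96 h and 29.6% at 144 h, so that the count itself is near the background. For CEBPE the difference in log2 change was 3.94 at 96 h and 3.34 at 144 h, with all treated ELF-153 libraries above and all treated UCSD-AML1 libraries below their untreated counterparts. For IRF8 it was 3.91 at 96 h and 4.95 at 144 h, from 75 reads with DAC and 9 untreated in ELF-153 and 16 with DAC and 41 untreated in UCSD-AML1 at 96 h. At 144 h IRF8 had 188 reads with DAC and 14 untreated in ELF-153, and 12 with DAC and 25 untreated in UCSD-AML1. IRF8 passed the filter only with the treated ELF-153 libraries, so that its place in this count was tied to the difference. With no filter the adjusted p of its difference was 0.0112 at 96 h and 0.00103 at 144 h (limma).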

How the results depend on the processing

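Of the log2 changes of the 7 genes with DAC under all alternatives, 468 kept their side of the threshold, 18 no longer passed, 5 passed anew and 1, CEBPB in ELF-153 at 96 h, turned to 0.81 with the mitochondrial share as a covariate; the cause was not tested. Of the 468, 11 that passed in neither fit changed sign, among them SPI1, CEBPB and CEBPD in ELF-153 at 144 h with the covariate (0.40, 0.28 and 0.12) and CEBPB in UCSD-AML1 at 144 h under TMM scaling (0.03). CEBPA in UCSD-AML1 at 96 h and SPI1 in UCSD-AML1 at 144 h account for most of those lost. SPI1 in UCSD-AML1 also passed at 96 h (adjusted p = 0.0366) when the 6 libraries compared were fitted alone. With only features of a mean of 50 or more, from which GFI1 and IRF8 were missing, the genes called were 2 between untreated lines, 3 between treated lines and 1 for the difference in response at 96 h, and 1, 3 and 1 at 144 h. With the mitochondrial share as a covariate 4 genes differed in response at 96 h and 4 at 144 h. Of all features, 5471 of 18799 were called in this fit at 96 h and 2605 of 18293 at 144 h. The 4 genes were CEBPE and IRF8, with CEBPD and SPI1 passing anew (SPI1 at 0.65 and 1, adjusted p = 0.0418 and 0.0212). Between untreated lines at 144 h, 1 gene was called under TMM scaling, where 9422 of 18293 features were called, and 1 with the 6 libraries alone. No fit of 6 libraries exists for the difference in response. Leaving out 1 library at a time gave the following counts of genes called: with DAC in UCSD-AML1, 2 to 3 at 96 h and 3 to 4 at 144 h; with DAC in ELF-153, 3 to 3 and 3 to 5; between untreated lines, 3 to 4 and 1 to 4; between treated lines, 4 to 5 and 5 to 5; and for the difference in response, 2 to 3 and 2 to 2. The 5 in ELF-153 and the 4 between untreated lines came without replicate 1 of the untreated ELF-153 libraries at 144 h, and the 1 came without replicate 1 or 2 of untreated UCSD-AML1 or replicate 2 of untreated ELF-153. Same-numbered libraries correlated at -0.07 to 0.02 in UCSD-AML1 at 96 h, -0.04 to 0.32 in ELF-153 at 96 h and -0.31 to 0.16 in ELF-153 at 144 h. The rule of a correlation above 0.1 in every pair was thus not met there. In ELF-153 at 96 h numbers 1 and 2 correlated at 0.29 and 0.32, against -0.29 and -0.32 when crossed, and number 3 at -0.04. The fit with a replicate block called 3 genes with DAC in each line at 96 h, 4 in UCSD-AML1 and 3 in ELF-153 at 144 h, and changed no call of a gene with DAC. Between the lines the block ended the calls of IRF8 (untreated, 96 h, adjusted p = 0.326), CEBPD (untreated, 144 h, adjusted p = 0.0793), and SPI1 and GFI1 (treated, 144 h, adjusted p = 0.0751 and 0.0578), and CEBPA (untreated and treated, 144 h, -1.06 and -1.21, adjusted p = 0.018 and 0.0114) and CEBPB (treated, 96 h, 0.95, adjusted p = 0.00502) passed anew. List counts under TMM scaling and under the covariate were a choice made after seeing the data. In the comparisons of DAC-treated with untreated cells they kept more higher than lower for the regulators, targets and erythroid factors. The depth limits GFI1 and IRF8 in UCSD-AML1 and KLF4 and EGR2 throughout.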
